A study of Caenorhabditis elegans with 6 samples.

Results

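The *dod* genes were named for being downstream of DAF-16, the only FOXO transcription factor of *C. elegans*, in adults with reduced insulin signalling. The 9 listed members, *dod-3*, *dod-6*, *dod-17*, *dod-19*, *dod-20*, *dod-21*, *dod-22*, *dod-23* and *dod-24*, were taken by gene name from a table of 46904 genes, of which 20191 are protein-coding. The table held 10 genes with a *dod* name, and 1 of them was not on the list. The members were read in all 6 libraries, which came from whole dauer larvae, the long-lived and non-feeding larval stage entered under harsh conditions.

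DAF-16 is held out of the nucleus by insulin signalling and enters it when that signalling is low. In adults it then raises a first class of genes, among them stress defence genes such as *sod-3* and *mtl-1*, and lowers a second class that holds yolk protein and other intestinal genes. *dod-3* and *dod-6* were named from the first class, and the 7 members numbered from *dod-17* to *dod-24* from the second. *dod-17*, *dod-22* and *dod-24* encode proteins with a CUB-like domain, a kind of protein that the worm intestine makes and that is often induced by pathogens. Dauer larvae are a stage in which insulin signalling is low, so the comparison asks whether these adult targets depend on *daf-16* there too.

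Both genotypes carried *daf-7(e1372)*, a temperature-sensitive mutation in a TGF-beta ligand that makes larvae enter dauer at the restrictive temperature. *daf-16(0)* larvae also carried *daf-16(mgDf50)*, a deletion of most of the *daf-16* coding sequence, and control larvae carried *daf-7(e1372)* alone. Embryos of either genotype were kept at 24 °C for 52 h and dauer larvae were picked by hand, since part of the *daf-16(0)* population does not enter dauer. There were 3 libraries per genotype, and the authors' own comparison used 4 libraries, control replicates 1 and 2 with *daf-16(0)* replicates 2 and 3. It left out control replicate 3 and replicate 1 of *daf-16(0)*, so tests are given for the 4 libraries and for all 6. The authors' methods describe finding outlier samples by read quality and principal component analysis, without naming them. The protocol names 2 biological replicates per strain while 3 libraries were deposited. The p-values therefore measure the spread between these libraries, which may be partly technical. Counts of libraries of the same genotype differed beyond counting error, with a chi-square per degree of freedom of 55.7 to 310. How much of this came from separate cultures was not tested.

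Protein-coding genes held 8103772 to 17808548 counts per library, and 3 counts corresponded to 0.154 to 0.425 CPM. CPM here are counts scaled to the TMM-normalized library size. *daf-16* itself was at 40.2, 63.4 and 42.9 CPM in *daf-16(0)* replicates 1 to 3 and at 399, 354 and 197 CPM in control replicates 1 to 3. Control replicate 3 stood apart on the second principal component, at 138 against -67.4 to 12.9 in the other libraries. Its 6 yolk genes, vitellogenins normally made by the adult intestine, summed to 18328 CPM, against 322 and 124 CPM in the other controls and 13816 to 25585 CPM in *daf-16(0)*. The 5 dauer cuticle markers summed to 28.2, 1194 and 1813 CPM in *daf-16(0)* and to between 11169 and 42886 CPM in the controls, so *daf-16(0)* replicate 1 had the lowest level of genes that mark its labelled stage. The 10 intestinal markers were detected in every library and summed to 3249, 3688 and 4622 CPM in *daf-16(0)* against 2620, 2227 and 1577 CPM in the controls. Sperm markers summed to 168 to 832 CPM in *daf-16(0)* and 8.76 to 34.4 CPM in the controls, and muscle markers to 4157 to 12094 CPM and 5880 to 24576 CPM. Hypodermal markers summed higher in *daf-16(0)* (1355 to 1863 CPM against 141 to 225 CPM). Neuronal markers summed lower (241 to 317 CPM against 537 to 820 CPM), and neither sum overlapped between the genotypes. The hypodermal genes were mixed, with 2 of 7 higher and 1 lower in the 4 libraries at an edgeR adjusted p of at most 0.05. The lower gene was *elt-1* (log2 fold change -1.78), and *elt-3* was at -0.47 and did not pass. In all 6 libraries 4 passed as higher and 0 as lower. Oocyte and germline markers summed to 1736, 890.5 and 339 CPM in *daf-16(0)* and to 220, 85.8 and 1072 CPM in the controls, high in control replicate 3 as the yolk genes were. In whole animals, fewer cells of a type and less RNA per cell cannot be told apart, and the part of these differences in the results on *dod* genes was not tested except where the level relative to intestinal markers is given.

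In the 4 libraries, 5 of the second-class members were higher in *daf-16(0)* (*dod-17*, *dod-19*, *dod-20*, *dod-22* and *dod-23*) and the first-class member *dod-3* was lower. These calls are at an adjusted p of at most 0.05 in edgeR's quasi-likelihood fit over all protein-coding genes. *dod-6* and *dod-24* were not called, and *dod-21* had too few counts to be tested. Of the 13536 genes tested, 2025 were called, with 5.37% higher and 9.59% lower. The median log2 fold change of the 8 members tested was 2.84, against 0.11 over all genes tested. With all 6 libraries, *dod-19* and *dod-22* were called higher and no member lower, where 5.08% of 13633 genes were called higher and 7.39% lower. The member median was then 2.25, against 0.09 over all genes. At an unadjusted p under 0.05, 7 members passed in the 4 libraries and 4 in the 6. By levels alone, 6 members were above both controls in both *daf-16(0)* libraries of the 4, and 1 was below, where 32.4% of all genes with a count were above and 28.4% below. Over the 6 libraries 4 members were above every control and 0 below, against 18.5% and 15.7% of genes.

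**Figure D1:**
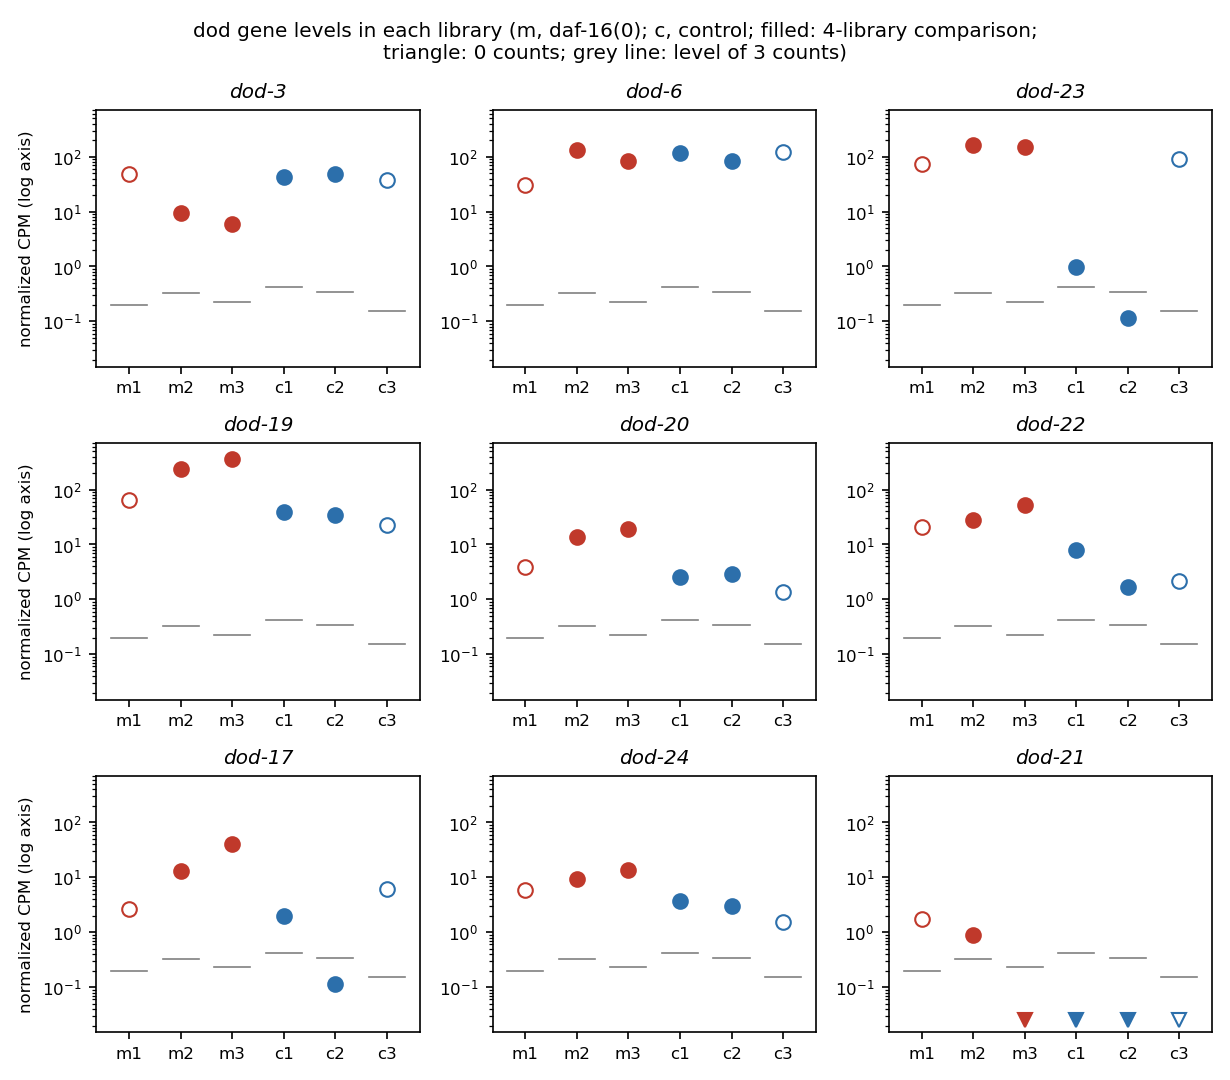
Normalized CPM of each *dod* gene in each of the 6 libraries on a log axis, with *daf-16(0)* in red and control in blue, and with filled points for the 4 libraries of the authors' comparison and open points for the other libraries. *dod-19*, *dod-20*, *dod-22* and *dod-24* are higher in every *daf-16(0)* library than in any control, while *dod-23* reaches 90.5 CPM in control replicate 3.

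Calls depended on single libraries. Leaving out *daf-16(0)* replicate 3 from the 4 libraries left *dod-19* and *dod-23* called, 2 members instead of 6. From the 6 libraries, leaving out control replicate 2, *daf-16(0)* replicate 2 or *daf-16(0)* replicate 3 left 0 members called by edgeR, with 3, 3 and 2 at an unadjusted p under 0.05. Without control replicate 1 of the 6, *dod-22* alone was called, and without control replicate 3 *dod-19*, *dod-22* and *dod-23* were, 3 members. DESeq2 called the same 6 members in the 4 libraries, and *dod-19*, *dod-20*, *dod-22* and *dod-24* in the 6. For *dod-23* in the 6 libraries DESeq2 returned a log2 fold change of 2.03 and no p-value.

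**Figure D2:**
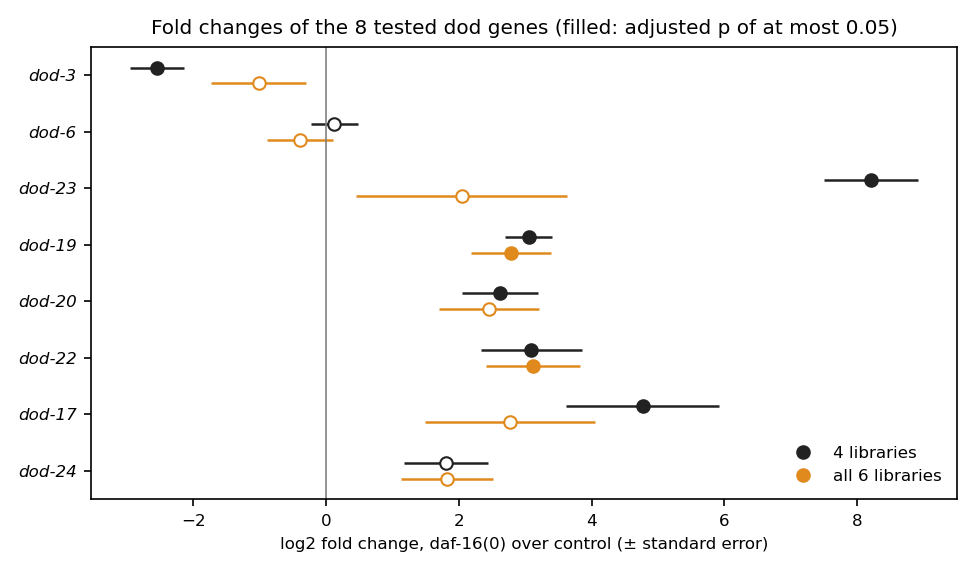
Log2 fold change of *daf-16(0)* over control for the 8 *dod* genes tested, from edgeR with bars of 1 standard error. The fit to the 4 libraries is in black and the fit to all 6 in orange. Filled points have an adjusted p of at most 0.05 and open points do not. The 4-library values run from -2.54 for *dod-3* to 8.21 for *dod-23*, and the 6-library values of *dod-3*, *dod-17* and *dod-23* lie nearer 0.

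*dod-3* (WBGene00016052, C24B9.9) lies on chromosome V at 2730594 to 2731098 on the reverse strand of WBcel235 and encodes 106 residues in 2 exons. Its level was 48.3, 9.54 and 5.94 CPM in *daf-16(0)* replicates 1 to 3 and 42.9, 48.1 and 38.4 CPM in the controls. *daf-16(0)* replicate 1 was thus above all 3 controls, while the other *daf-16(0)* libraries were below them. In the 4 libraries the mean was 7.74 ± 2.54 CPM in *daf-16(0)* and 45.5 ± 3.67 CPM in the control (SD, n = 2 each). *dod-3* was called lower there, at -2.54 on the log2 scale (SE 0.40, edgeR adjusted p = 0.014). It was -2.21 with an adjusted p of 0.0527 without *daf-16(0)* replicate 3. Over 6 libraries it was -1.02 (SE 0.72, edgeR adjusted p = 0.377), and -2.47 with an adjusted p of 0.028 when *daf-16(0)* replicate 1 was left out. The call therefore rested on leaving aside the *daf-16(0)* library with the least dauer cuticle RNA.

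*dod-6* (WBGene00011869, T20G5.7), on chromosome III at 10197716 to 10198352 on the forward strand, encodes 60 residues. It was measured at 31.1, 133 and 82.3 CPM in *daf-16(0)* and at 118, 82.4 and 123 CPM in the controls. The ranges overlapped, with *daf-16(0)* replicate 1 lowest and *daf-16(0)* replicate 2 highest. The log2 fold change was 0.13 (SE 0.36, edgeR adjusted p = 0.824) in the 4 libraries and -0.39 (SE 0.49, adjusted p = 0.626) in the 6, with the sign turning between the fits. *dod-3* was thus at 0.170 times its control mean in the 4 libraries and *dod-6* at 1.07 times.

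Other genes that DAF-16 induces in adults gave the background for *dod-3*. Of the 20 listed, 19 were tested in the 4 libraries, with 8 lower, 1 higher and a median log2 fold change of -1.56. In the 6 libraries 18 were tested, with 6 lower, 0 higher and a median of -1.39. Over all genes tested, 9.59% were called lower in the 4 libraries and 7.39% in the 6. *sod-3*, a mitochondrial superoxide dismutase, was at -5.03 and *mtl-1*, a metallothionein, at -4.63 in the 4 libraries, against -2.54 for *dod-3*. In *daf-16(0)* replicate 1, where *dod-3* was at its control level, *sod-3* and *mtl-1* were at 2.93 and 1.43 CPM, below every control.

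*dod-23* (WBGene00009898, F49E12.2) showed the widest range of the members. It lies on chromosome II at 8398161 to 8399160 on the reverse strand and encodes 168 residues in 3 exons. Its counts were 1114, 1460 and 1960 in *daf-16(0)* and 7, 1 and 1766 in the controls, or 72.5, 160.1 and 149 CPM against 0.992, 0.114 and 90.5 CPM. Control replicate 3 thus lay among the *daf-16(0)* libraries, 795 times above control replicate 2. In the 4 libraries the summed normalized counts differed 304.5-fold (95% exact interval 154 to 706, for counting error only), since the controls held 8 counts together. The edgeR log2 fold change was 8.21 (SE 0.70, adjusted p = 0.00506). It was called on leaving out any of these 4 libraries, at 10.27 without control replicate 1, 7.29 without control replicate 2, and 8.18 and 8.27 without *daf-16(0)* replicates 2 and 3. With all 6 libraries it was 2.05 (SE 1.59, adjusted p = 0.423), and 7.92 with an adjusted p of 0.00267 without control replicate 3.

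Genes were ranked by likeness to each member, as the root mean square difference between centred log2 CPM profiles over the 6 libraries. Among 8727 genes the 3 nearest to *dod-23* were *vit-6* (0.61), *vit-2* (0.67) and *vit-5* (0.80), all vitellogenin genes. All 3 were high in control replicate 3 and in every *daf-16(0)* library and low in control replicates 1 and 2, as *dod-23* was. Per 1000 CPM of the 6 yolk genes, *dod-23* was at 3.14, 11.6 and 5.84 CPM in *daf-16(0)* and at 3.08, 0.917 and 4.94 CPM in the controls. The genotypes overlapped on that scale over the 6 libraries. In the 4 libraries both *daf-16(0)* values stayed above both controls, with means 4.36-fold apart. Oocyte and germline markers were also higher in control replicate 3 than in the other controls, and their part in the *dod-23* values was not tested. These are 6 points that share their libraries, and the likeness is given as a description.

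**Figure D3:**
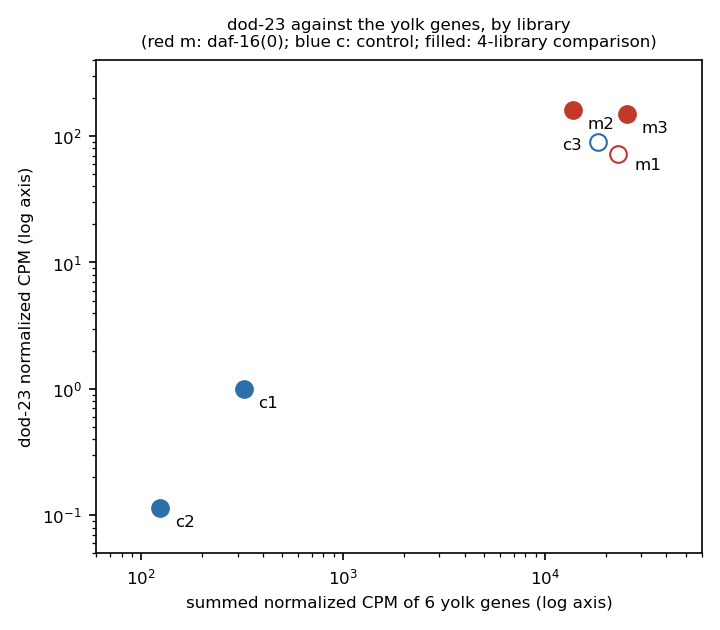
*dod-23* in normalized CPM against the summed normalized CPM of 6 yolk genes, 1 point per library, both axes log, with *daf-16(0)* (m) in red and control (c) in blue and the libraries outside the authors' comparison open. Control replicates 1 and 2 lie at the low end, with 322 and 124 CPM of yolk RNA, and control replicate 3 lies beside the *daf-16(0)* libraries.

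*dod-19* (WBGene00022644, ZK6.10) and *dod-20* (WBGene00015259, B0554.6) are neighbours on chromosome V. *dod-19* covers 411782 to 414760 on the reverse strand, and *dod-20* covers 422498 to 424064 on the forward strand, 7.74 kb away with 2 protein-coding genes between them. They encode 406 and 382 residues and each have 6 coding exons, of which the first (209 bases), the second (155 bases) and a later exon of 134 bases are equal in length. The reads were not re-aligned here, so how far such relatives share reads was not tested. The authors' expected counts of *dod-19* and *dod-20* were whole numbers in every library. Per library, 1.57 to 2.78% of protein-coding genes had an expected count that was not whole.

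*dod-19* was at 65.3, 239.5 and 364 CPM in *daf-16(0)* and at 39.4, 34.4 and 23.1 CPM in the controls. Every *daf-16(0)* library was above every control, with *daf-16(0)* replicate 1 the nearest to them. The mean of the 4 libraries was 302 ± 87.9 CPM against 36.9 ± 3.56 CPM (SD, n = 2 each), with a log2 fold change of 3.05 (SE 0.35, edgeR adjusted p = 0.00682), and of 2.79 (SE 0.60, adjusted p = 0.0264) in all 6 libraries. Leaving out any of the 4 libraries kept the call, with adjusted p of 0.0017 to 0.021. In the 6 it was lost without control replicate 1 (0.0632), control replicate 2 (0.0813), *daf-16(0)* replicate 2 (0.0912) or *daf-16(0)* replicate 3 (0.0730), the adjusted p being given for each.

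*dod-20* was much lower in level, at 3.97, 13.7 and 19.4 CPM in *daf-16(0)* and 2.55, 2.84 and 1.38 CPM in the controls. Its genotypes did not overlap either. The fitted log2 fold change was 2.63 (SE 0.57, edgeR adjusted p = 0.0322) in the 4 libraries and 2.45 (SE 0.76, adjusted p = 0.0715) in the 6. Without *daf-16(0)* replicate 2 or 3 of the 4, the adjusted p was 0.0649 or 0.135. *dod-19* and *dod-20* had the most similar profiles of any 2 members, with a root mean square difference of 0.23 on the log2 scale, against 4.37 for *dod-3* and *dod-23*, the least similar.

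*ZK6.11*, which begins 0.953 kb from *dod-19* in the interval between this pair, was called in the same direction. It has 6 coding exons, of which the 4 from the second on (155, 345, 134 and 196 bases) have the lengths found in *dod-19*. The values of these relatives are therefore uncertain as far as reads could be divided between them. The expected counts of *ZK6.11* were also whole numbers in every library. Its level was 304, 617 and 677 CPM in *daf-16(0)* and 57.7, 33.8 and 39.3 CPM in the controls, again without overlap. Its log2 fold change was 3.85 (SE 0.40, edgeR adjusted p = 0.006) in the 4 libraries and 3.61 (adjusted p = 0.005) in the 6. It was the only called gene among the 13 protein-coding neighbours within 20 kb of *dod-19* or *dod-20*, of which 4 were tested in the 4 libraries. Among the 8727 genes compared, the nearest profiles to *dod-19* were *col-180* on chromosome X (0.30), *F54D5.4* on chromosome II (0.31) and *col-145* on chromosome V (0.31). *col-180* and *col-145* are collagen genes. *dod-20*, at a mean of 2.33 log2 CPM, fell below the minimum of 3 for that ranking. At 0.23 it was nearer to *dod-19* than any of them.

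The other 4 members lie together on chromosome IV. From *dod-21* (WBGene00007873, C32H11.10, 12936738 to 12937988, forward strand) the interval runs 41.6 kb over *dod-24* (WBGene00007875, C32H11.12, 12940106 to 12941405, reverse strand) and *dod-22* (WBGene00010125, F55G11.5, 12965387 to 12967318, forward strand) to *dod-17* (WBGene00010745, K10D11.1, 12976231 to 12978343, forward strand). It holds 13 protein-coding genes. *dod-21* and *dod-24* each encode 361 residues in 3 coding exons of 284, 669 and 130 bases, the same lengths in both, and lie 2.12 kb apart. *dod-17* and *dod-22* encode 341 and 342 residues in 8 coding exons. Values of such close relatives are uncertain as far as the authors' counting could divide reads between them. The expected counts of these 4 members were whole numbers in every library.

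*dod-22* was at 21.2, 27.4 and 52.5 CPM in *daf-16(0)* and at 7.94, 1.71 and 2.15 CPM in the controls. The lowest *daf-16(0)* library was above the highest control. The log2 fold change was 3.09 (SE 0.76, edgeR adjusted p = 0.0431) in the 4 libraries and 3.12 (SE 0.71, adjusted p = 0.0308) in the 6, a call in both. Without *daf-16(0)* replicate 3 of the 4 libraries it was 2.57 with an adjusted p of 0.127. Its size also turned on the controls, at 4.55 without control replicate 1 and 2.35 without control replicate 2, and it was 4.12 without control replicate 1 of the 6. Of the 6, leaving out control replicate 2 (adjusted p = 0.0843), *daf-16(0)* replicate 1 (0.0503), replicate 2 (0.0912) or replicate 3 (0.101) ended the call. Among the 8727 genes compared, the profile nearest to *dod-22* was that of *pcp-2* (0.24), a prolyl carboxypeptidase-like gene on chromosome IV. *pcp-2* was at 94.5, 112 and 251 CPM in *daf-16(0)* and 24.9, 9.90 and 9.32 CPM in the controls.

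*dod-17* was at 2.67, 13.1 and 41.4 CPM in *daf-16(0)* and at 1.98, 0.114 and 6.05 CPM, from 14, 1 and 118 counts, in the controls. Control replicate 3 was above *daf-16(0)* replicate 1, so the 6 libraries overlapped, while the 4 did not. The log2 fold change was 4.77 (SE 1.15, edgeR adjusted p = 0.0413) in the 4 libraries, where the controls held 15 counts together. The summed normalized counts there differed 31.4-fold (95% exact interval 18.9 to 56.5, for counting error only), and the controls themselves differed 17.4-fold from each other. Without *daf-16(0)* replicate 3 the log2 fold change was 3.71 with an adjusted p of 0.151, and without control replicate 1 it was 7.77 with an adjusted p of 0.00229. It was 3.797 without control replicate 2 and 5.40 without *daf-16(0)* replicate 2, and over the 6 libraries it was 2.77 (SE 1.28, adjusted p = 0.189).

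*dod-24* was at 5.79, 9.32 and 13.6 CPM in *daf-16(0)* and at 3.68, 2.96 and 1.54 CPM in the controls, without overlap. Its log2 fold change of 1.81 (SE 0.63, edgeR adjusted p = 0.0959) did not pass in the 4 libraries, nor did 1.82 (SE 0.69, adjusted p = 0.121) in the 6. DESeq2 gave an adjusted p of 0.0403 in the 6 libraries. *dod-21* had 27, 8 and 0 counts in *daf-16(0)* and 0 in each control. At this depth a count of 0 allows up to 0.154 to 0.425 CPM, and no fold is given.

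**Figure D4:**
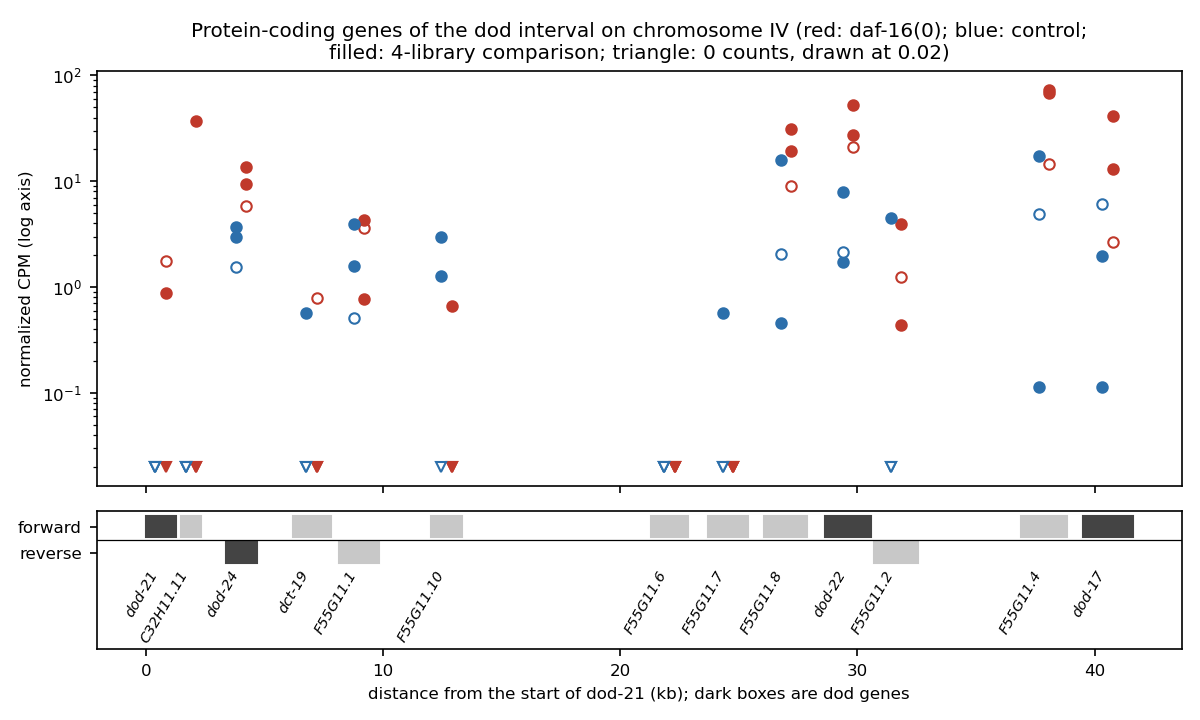
Normalized CPM in the 6 libraries of the 13 protein-coding genes between *dod-21* and *dod-17* on chromosome IV, in map order, with *daf-16(0)* in red and control in blue and the libraries outside the authors' comparison open. *dod-22* and *dod-24* are higher in every *daf-16(0)* library than in any control, and none of the 4 genes tested among the 9 without a *dod* name was called.

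Beside the *dod* genes this interval holds 9 protein-coding genes, 1 of them with no count in any library. In the 4 and in the 6 libraries 4 of the 9 were tested and 0 were called by edgeR. *F55G11.4*, whose 8 coding exons have the same lengths as those of *dod-17*, was at 14.5, 68.7 and 72.6 CPM in *daf-16(0)* and 17.1, 0.114 and 4.87 CPM in the controls. Its log2 fold change of 3.09 (SE 1.34, edgeR adjusted p = 0.152) did not pass, and control replicate 1 was above *daf-16(0)* replicate 1. *F55G11.8*, with those exon lengths again, had a log2 fold change of 1.67 (edgeR adjusted p = 0.352). *F55G11.2*, the last gene with those exon lengths, was at 1.24, 0.439 and 3.96 CPM in *daf-16(0)* and 4.53, 0 and 0 CPM in the controls, with a log2 fold change of 0.02 (SE 1.92, edgeR adjusted p = 0.997). The difference between the *dod* genes and these relatives was not tested.

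Within 20 kb of any *dod* gene lay 70 other protein-coding genes, of which 34 were tested in the 4 libraries, with 3 higher, 1 lower and a median log2 fold change of 0.93. In the 6 libraries 33 were tested, with 2 higher, 0 lower and a median of 0.49. Over all genes tested, 5.37% were called higher and 9.59% lower in the 4 libraries, at a median of 0.11. In the 6 these were 5.08% and 7.39%, at a median of 0.09. Besides *ZK6.11*, the genes called in the 4 libraries were *C24B9.3* near *dod-3* (2.57, edgeR adjusted p = 0.031), *rde-4* near *dod-6* (1.91, adjusted p = 0.033) and *F49E12.12* near *dod-23* (-2.32, adjusted p = 0.033). *C24B9.3* and *F49E12.12* were called in the direction opposite to that of the *dod* gene beside them. *rde-4* encodes a double-stranded RNA binding protein of the RNA interference pathway.

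Levels were also taken relative to the 10 intestinal markers. These were mixed, with 3 called higher and 0 lower in the 4 libraries. One of the 3, *pept-1*, is also on the list of genes that DAF-16 represses in adults. *elt-2* (0.16) and *ifo-1* (-0.62) were not called. The sum of the 10 was higher in every *daf-16(0)* library than in any control, which lowers every ratio in *daf-16(0)*. On this scale 3 second-class members were higher in every *daf-16(0)* library than in any control, where 7.59% of all genes with a count were. Per 1000 CPM of these markers, *dod-19* was at 20.1, 64.9 and 78.7 CPM in *daf-16(0)* and between 14.6 and 15.4 CPM in the controls. *dod-22* was at 6.53, 7.43 and 11.4 CPM against 3.03, 0.767 and 1.36 CPM, and *dod-24* at 1.78, 2.53 and 2.95 CPM against 1.41, 1.33 and 0.975 CPM. *dod-20* overlapped on this scale, with *daf-16(0)* replicate 1 at 1.22 CPM and control replicate 2 at 1.28 CPM.

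On the same scale both first-class members were lower in every *daf-16(0)* library than in any control, as were 31.3% of all genes with a count. Without this scaling both overlapped over the 6 libraries. *dod-3* was at 14.9, 2.59 and 1.29 CPM against 16.39, 21.6 and 24.3 CPM, and *dod-6* at 9.58, 36.0 and 17.8 CPM against 45.0, 37.0 and 77.9 CPM. *daf-16(0)* replicate 2 and control replicate 2 were close together for *dod-6*. Whether these genes are read mainly in the intestine of dauer larvae is not shown by the libraries, so the scale is a description.

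Levels of different members were compared per kilobase of exon. In the controls, over 3 libraries, *dod-6* was highest at 185 ± 37.9 CPM per kb, followed by *dod-3* at 103 ± 11.6, *dod-23* at 41.2 ± 70.1 and *dod-19* at 23.1 ± 6.0 (SD, n = 3 each). *dod-6* and *dod-3* lay further apart than their SDs, and the wide spread of *dod-23* overlapped those of *dod-3* and *dod-19*. The level of *dod-23* came from control replicate 3, at 122 CPM per kb against 1.34 and 0.154, and without that library its mean was 0.746 CPM per kb, below every member but *dod-21*. *dod-22*, *dod-17*, *dod-24* and *dod-20* followed at means of 3.13, 2.38, 2.36 and 1.70 CPM per kb, which lay within their spread of each other, and *dod-21* was at 0. In *daf-16(0)*, *dod-23* (172 ± 64.5), *dod-19* (159.6 ± 107) and *dod-6* (141 ± 87.5) were the highest, and their spreads overlapped. *dod-3* came next at 50.6 ± 55.9 CPM per kb, then *dod-22* at 26.9 ± 13.2, *dod-17* at 16.7 ± 17.6, *dod-20* at 9.30 ± 5.86, *dod-24* at 8.28 ± 3.40 and *dod-21* at 0.770 ± 0.771. The place of *dod-3* rested on *daf-16(0)* replicate 1, at 115 CPM per kb against 22.7 and 14.2 in replicates 2 and 3. In the 4 libraries its *daf-16(0)* mean was 18.4 CPM per kb, below *dod-22* at 31.8 and *dod-17* at 23.9. *dod-19* therefore stood level with *dod-6* in *daf-16(0)*, where in the controls it was far below it.

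Other genes that DAF-16 represses in adults numbered 8. Of these, 7 were tested in the 4 libraries, with 4 higher, 0 lower and a median log2 fold change of 3.04, and in the 6 libraries 7 were tested, with 2 higher, 0 lower and a median of 1.58. The 4 were *vit-2* (6.57), *vit-5* (5.99), the intestinal peptide transporter gene *pept-1* (3.04, edgeR adjusted p = 0.0230) and the nuclease gene *nuc-1* (2.25, adjusted p = 0.0102). In the 6 libraries *pept-1* and *nuc-1* stayed called. *vit-2* (1.51, edgeR adjusted p = 0.547) and *vit-5* (1.14, adjusted p = 0.653) did not, with control replicate 3 at 6498 and 4703 CPM. *ins-7*, an insulin-like peptide gene, had a log2 fold change of 4.24 and was not called (edgeR adjusted p = 0.105). The *dod* genes of the second class had 5 of 6 tested called higher in the 4 libraries and 2 of 6 in the 6, beside the 5.37% and 5.08% of all genes.

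Of 14 pathogen response genes 13 were tested, with 2 higher (*C17H12.8* and the C-type lectin gene *clec-85*), 0 lower and a median of 1.59 in the 4 libraries, and 1 higher, 0 lower and a median of 1.79 in the 6. Of 35 genes that share a clone name with certain *dod* genes or with the *K08D8* group, 19 were tested in the 4 libraries, with 2 higher, 0 lower and a median of 1.62, and 20 in the 6 libraries, with 2 higher, 1 lower and a median of 1.67. The 5 *dao* genes, named for raised expression in dauer or aging adults, were all tested, with 1 higher, *dao-2*, and 0 lower in the 4 and in the 6 libraries, at medians of 1.00 and 0.80. Of 18 genes of the insulin pathway and partners of DAF-16, 1 was higher and 6 lower in the 4 libraries, *daf-16* among the latter at -2.80 (edgeR adjusted p = 0.008). In the 6 libraries 5 were lower, and *sgk-1*, the gene called higher in the 4, was not called (edgeR adjusted p = 0.132). Beside all these lists, 5.37% of all genes tested were called higher and 9.59% lower in the 4 libraries. In the 6 these shares were 5.08% and 7.39%.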

How the data were processed

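Whole dauer larvae of 2 genotypes were sequenced as mRNA. Per the labels, the authors used Trimmomatic 0.39 on the reads and STAR 2.4.2a for alignment to WBcel235. They deposited expected counts per gene, estimated with RSEM 2.1 and not normalized. Whether counting used strand is not given in the sources used here. No *dod* gene overlaps another gene of the table. The deposited normalized counts and the authors' fold changes and p-values were not used.

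Expected counts of protein-coding genes were rounded and tested with edgeR 4.0.16 in R 4.3.3 (filterByExpr, TMM, quasi-likelihood, Benjamini-Hochberg over all genes tested). Standard errors are the absolute log2 fold change over the square root of F. DESeq2 1.42.0, RLE, no filter, fold thresholds, a replicate block and leaving out each library were alternatives. Other steps used Python 3.11 and pandas 2.3.3. Genes named are the 9 members, the 3 nearest profiles (log2 of CPM plus 0.25, genes averaging at least 3 log2 CPM), called neighbours within 20 kb, and list members at the extremes or set beside a member. *C24B9.9* and the other clone names come from RefSeq, and exon lengths from Ensembl. The members and lists were chosen with earlier results of these data known. Promoter motifs and protein identity were not analysed here. The labels name the *daf-16(0)* strain in different ways.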

Additional observations from a re-analysis of the deposited data

How the results depend on the processing

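The number of *dod* genes called, 6 in the 4 libraries by edgeR, stayed at 6 with DESeq2, RLE size factors or no filter on low counts. It was 2 with all 6 libraries and 0 with the replicate block on 6 libraries, where 3 had an unadjusted p under 0.05. Leaving out 1 library gave 0 to 6. Libraries of the same replicate number correlated at -0.0528, -0.0114 and -0.231 in their deviations from the group means. Such deviations sum to 0 within a genotype, so these values cannot settle whether the numbers pair the libraries. The number of all genes called, 2025, was 3698 with DESeq2 on 4 libraries, 3524 with DESeq2 on 6, 3600 with no filter, 1317 with a log2 fold change of 2 or more in either direction also required, 384 with the replicate block, and 295 to 3553 on leaving out 1 library. *dod-6* turned from 0.13 to -0.39 with all 6 libraries by edgeR, to -0.39 by DESeq2 and to -0.60 with the replicate block, and lay between -0.90 and 0.46 on leaving out 1 library. The other 7 members tested kept their direction under every alternative, and the cause of each change was not tested. The depth limits *dod-21* and the control levels of *dod-17* and *dod-23*, which rest on few counts.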

Other observations

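*C32H11.9* and *C32H11.11*, chosen after their values were seen, share a clone name with *dod-21* and *dod-24*. *C32H11.11* had 336 counts in *daf-16(0)* replicate 2 and 0 in the other 5 libraries, after rounding. Its expected count was not a whole number in 1 library, so its value is uncertain, and how its reads were divided was not tested. *C32H11.9* had 111 counts in *daf-16(0)* replicate 3 and 0 in the other 5. With the 27 counts of *dod-21* in *daf-16(0)* replicate 1, each of these genes was highest in a different *daf-16(0)* library, and none was detected in a control. Among the genes induced by DAF-16 in adults, *hsp-16.48*, a small heat shock protein gene, was the only one called higher in the 4 libraries. It had 1122, 1688 and 3445 counts in *daf-16(0)* and 0, 0 and 244 in the controls. It has near copies in the genome, so its value is uncertain.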
